A study of Homo sapiens with 6 samples.

Results

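This account covers 7 genes of the class IIa histone deacetylase pathway in F36P cells: the class IIa deacetylases HDAC7, HDAC5 and HDAC4, the class I deacetylase HDAC3, the transcription factors MEF2A and MEF2D, and the corepressor NCOR1. They were chosen by gene symbol, and all 7 were found among the 16315 genes of the deposited count table. F36P is a human leukaemia line that needs cytokine to grow and has erythroid features. The 3 libraries called sgHDAC7 came from F36P cells transduced with a CRISPR guide RNA against HDAC7 and are labelled as an HDAC7 knockout, and the 3 libraries called sgNT came from F36P cells with a non-targeting guide and are labelled wild type. Both groups carried a puromycin resistance plasmid and were kept in 1 µg/ml puromycin for 4 days before bulk RNA-seq of polyadenylated RNA. The labels do not say how many guides were used, which exon they cut, whether cells were a pool or a clone, or how many alleles were edited. They call the libraries biological replicates without saying that they were grown apart, so p-values measure the spread between these libraries. The study asks how HDAC7 bears on erythroid differentiation, and sgHDAC7 against sgNT is its one comparison.

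Class IIa deacetylases are shuttling corepressors. In the nucleus they bind MEF2 factors at their target genes, and since their own catalytic pocket is weak they work with HDAC3, which is held in a complex by corepressors such as NCOR1. Kinases of the CaMK, protein kinase D and SIK families phosphorylate them, 14-3-3 proteins then hold them in the cytoplasm, and phosphatases return them to the nucleus. HDAC7 is known chiefly from thymocytes, B cells and endothelium, and HDAC4, HDAC5 and MEF2 factors from muscle, heart and bone.

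The feature that divides the 4 deacetylases is visible in their coding sequence, shown here because the results below set class IIa enzymes against HDAC3. The 60 bases around one codon of the catalytic pocket are given 5′ to 3′ from GENCODE 29 transcripts (GRCh38, all on the minus strand), with that codon in capitals. CAT and CAC code for histidine, which class IIa enzymes carry there, and TAT codes for tyrosine, which class I enzymes carry and use in catalysis.
HDAC7: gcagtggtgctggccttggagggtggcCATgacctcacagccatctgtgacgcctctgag
HDAC5: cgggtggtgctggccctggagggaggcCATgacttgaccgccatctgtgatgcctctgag
HDAC4: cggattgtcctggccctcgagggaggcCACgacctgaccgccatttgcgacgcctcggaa
HDAC3: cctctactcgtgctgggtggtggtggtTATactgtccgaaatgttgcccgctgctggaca
The capital codon is codon 882 of HDAC7 (chr12:47785812-47785814, exon 23), codon 1007 of HDAC5 (chr17:44079204-44079206, exon 24), codon 976 of HDAC4 (chr2:239066782-239066784, exon 24) and codon 298 of HDAC3 (chr5:141626220-141626222, exon 11). Over these 60 bases HDAC7 matched HDAC5 at 51 positions (85.0%), HDAC4 at 44 (73.3%) and HDAC3 at 20 (33.3%). HDAC5 and HDAC4 matched at 49 positions (81.7%).

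Library totals ran from 11645003 to 12521195 counts in sgHDAC7 and from 10039693 to 11149179 counts in sgNT. In each group replicate 1 was the library least like the other two. Within a group, the chi-square per degree of freedom between libraries was 7.92 to 15.6 for pairs with replicate 1, and 3.24 in sgHDAC7 and 3.53 in sgNT between replicates 2 and 3. Log2 ratios within replicate 1 and within replicates 2 and 3 are therefore given beside the results for each of the 7 genes. These ratios match libraries by number as a description, and the numbers were not taken as pairs. Of the 8 erythroid markers checked, all were abundant, the lowest single value being 198 CPM, read counts scaled to a common library size, for the erythroid factor GATA1. Of 8 markers of lymphoid, fibroblast and epithelial cells, 3 were not among the genes of the table and 4 were at most 2.75 CPM in each library. The exception was CD79A, a B cell gene, at 12.3 to 18.7 CPM.

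Across the transcriptome, 396 of 13841 genes tested passed the test (2.86%), 161 higher (1.16%) and 235 lower (1.7%) in sgHDAC7. The test was edgeR's quasi-likelihood test, two-sided, with Benjamini-Hochberg adjustment over all genes tested and a threshold of 0.05. The number of genes passing ran from 28 to 1595 when single libraries were left out, so these shares hold for the 6 libraries together. It was lowest without sgHDAC7 replicate 2 and highest without sgNT replicate 1. Among the 7 genes, HDAC5 rose, HDAC7 fell, and HDAC4, HDAC3, MEF2A, MEF2D and NCOR1 did not pass. The groups did not overlap for HDAC7 and HDAC5, against 25.1% of all genes tested, and overlapped for the other 5. The median log2 fold change of the 7 was -0.03, and that of all genes tested was -0.0016.

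**Figure D1:**
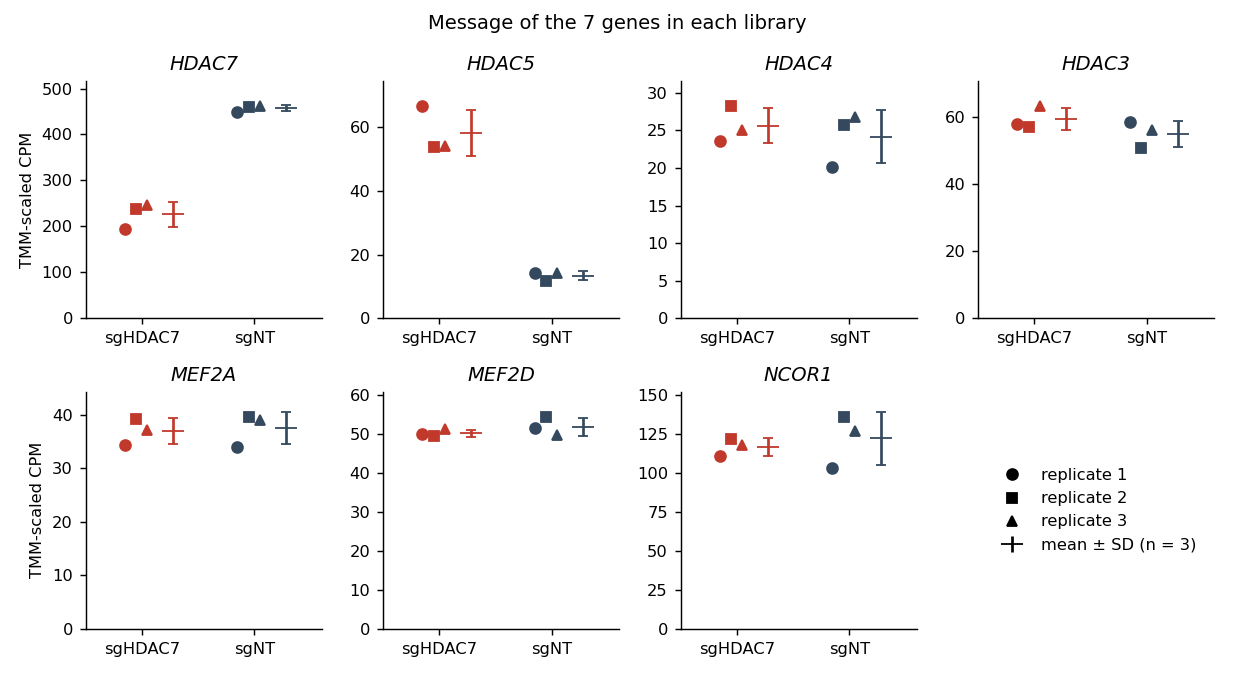
TMM-scaled CPM of each of the 7 genes in each library, with sgHDAC7 in red on the left of each panel and sgNT in dark blue on the right; marker shapes give the replicate number and bars the mean ± SD of 3 libraries. HDAC7 lies between 194 and 246 CPM in sgHDAC7 and between 449 and 461 CPM in sgNT, HDAC5 shows the opposite separation, and the groups overlap for the other 5 genes.

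HDAC7, the targeted gene (chr12:47782722-47833132, minus strand, GRCh38), gave the most abundant class IIa message in these cells. It had 194, 238 and 246 CPM in sgHDAC7 replicates 1, 2 and 3, from 2412, 2765 and 3039 reads. In sgNT it had 449, 459.7 and 461 CPM, from 4552, 5122 and 4860 reads. All 3 sgHDAC7 libraries lay below all 3 sgNT libraries, and the lowest of them was replicate 1. HDAC7 fell, with a log2 fold change of -1.02 ± 0.09 (SE; 95% interval -1.21 to -0.82; edgeR adjusted p = 0.00139). This left 49.5% of the sgNT level, with an interval of 0.431 to 0.568 as a ratio. The log2 ratio was -1.21 within replicate 1, and -0.95 and -0.91 within replicates 2 and 3. By raw p HDAC7 ranked 5 of all genes tested, and by size of fall it ranked 145.

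The counts measure message over the whole gene, so they do not show editing or protein. In bulk RNA, fewer cells with HDAC7 message and less message per cell cannot be told apart. Antisense genes annotated on the opposite strand cover 9.7% and 1.18% of HDAC7 exon bases. Whether the counting used strand is not given in the sources used here, so reads of HDAC7 and of these genes cannot be told apart.

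HDAC5 (chr17:44076746-44123702, minus strand), the nearest to HDAC7 of the 4 enzymes in the printed stretch, had 66.5, 53.7 and 54.1 CPM in sgHDAC7 replicates 1, 2 and 3, from 827, 623 and 670 reads. In sgNT it had 14.1, 11.7 and 14.1 CPM, from 143, 130 and 149 reads. The groups were far apart, and the highest library was sgHDAC7 replicate 1. That library also had the lowest HDAC7, and it was the library least like the rest of its group. Whether HDAC5 follows HDAC7 level within the group was not tested. HDAC5 rose 4.37-fold (95% interval 3.59 to 5.32), a log2 fold change of 2.13 ± 0.13 (SE; edgeR adjusted p = 0.000265). The log2 ratio was 2.20 within replicate 1, and 2.16 and 1.90 within replicates 2 and 3. No other gene tested had a smaller p, and 7 had a larger log2 fold change. No annotated gene overlaps HDAC5 exons.

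HDAC4 (chr2:239048168-239401654, minus strand), the third class IIa enzyme measured, had 23.6, 28.2 and 25.1 CPM in sgHDAC7 and 20.1, 25.7 and 26.8 CPM in sgNT. The ranges overlapped, with sgNT replicate 1 the lowest library. Its log2 fold change was 0.08 ± 0.13 (SE; edgeR adjusted p = 0.794), with an interval of 0.859-fold to 1.30-fold. The log2 ratio was 0.23 within replicate 1, and 0.13 and -0.09 within replicates 2 and 3. A rise of the size seen for HDAC5 lies outside that interval. An antisense gene on the opposite strand covers 0.76% of HDAC4 exon bases. HDAC9, the remaining class IIa enzyme, is not analysed here.

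The summed class IIa message was compared per length, as TMM-scaled CPM per kb of annotated exon (RPKM). HDAC7, HDAC5 and HDAC4 together had 30.03, 33.2 and 33.7 RPKM in sgHDAC7 and 48.6, 49.8 and 50.3 RPKM in sgNT. The mean was 32.3 ± 1.99 RPKM in sgHDAC7 and 49.6 ± 0.87 RPKM in sgNT (SD, n = 3 each), 34.8% lower in sgHDAC7. With an exact permutation test, two-sided, p was 0.1 for the sum and for the HDAC5 share, the smallest value that 3 against 3 libraries allow. HDAC5 gained 5.88 RPKM and HDAC7 lost 23.2 RPKM, so the gain equalled 25.3% of the loss (19.4% in CPM, without length).

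The make-up of class IIa message also differed. HDAC5 held 29.1%, 21.3% and 21.1% of it in sgHDAC7 and 3.81%, 3.08% and 3.69% in sgNT. HDAC7 held 70.3 ± 4.55% in sgHDAC7 and 92.8 ± 0.43% in sgNT, and HDAC4 5.93 ± 0.40% in sgHDAC7 and 3.65 ± 0.48% in sgNT (SD, n = 3 each). Shares of a sum move together, so the HDAC4 share differed while its level overlapped between the groups. There were 3.04 ± 0.70 HDAC7 messages for each HDAC5 message in sgHDAC7 and 26.6 ± 3.19 in sgNT, both per length (SD, n = 3 each). HDAC7 stayed the most abundant class IIa message in each of the 6 libraries.

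**Figure D2:**
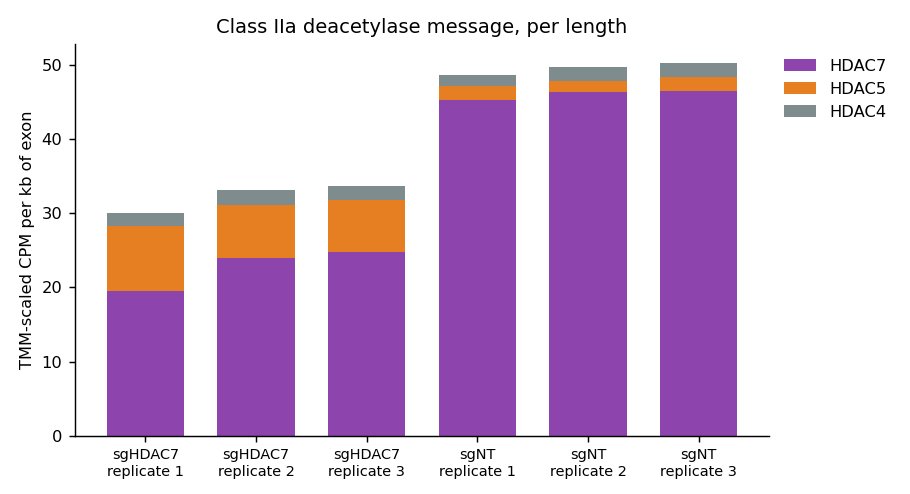
Stacked bars of HDAC7, HDAC5 and HDAC4 message in each library, in TMM-scaled CPM per kb of exon, with the 3 sgHDAC7 libraries left of the 3 sgNT libraries. The stacks reach 30.03 to 33.7 in sgHDAC7 and 48.6 to 50.3 in sgNT, and the HDAC5 segment is 21.1% to 29.1% of the stack in sgHDAC7 and 3.08% to 3.81% in sgNT.

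HDAC3 (chr5:141620876-141636870, minus strand) is the catalytic subunit of NCOR corepressor complexes. It had 58.0, 57.1 and 63.2 CPM in sgHDAC7 and 58.4, 50.8 and 56.1 CPM in sgNT. The groups overlapped, and the log2 fold change of 0.11 ± 0.08 did not pass (edgeR adjusted p = 0.523, interval 0.946-fold to 1.23-fold). The log2 ratio was -0.01 within replicate 1, and 0.17 within each of replicates 2 and 3. An antisense gene on the opposite strand covers 9.2% of HDAC3 exon bases.

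NCOR1 (chr17:16029157-16218185, minus strand), the corepressor that activates HDAC3 and bridges it to class IIa enzymes, had 111, 122 and 118 CPM in sgHDAC7 and 103, 136 and 127 CPM in sgNT. The sgNT libraries spanned the sgHDAC7 libraries on both sides. Its log2 fold change was -0.07 ± 0.10 (edgeR adjusted p = 0.769, interval 0.819-fold to 1.11-fold). The log2 ratio was 0.10 within replicate 1, and -0.16 and -0.11 within replicates 2 and 3. On the opposite strand, the gene PIGL shares 2.08% of NCOR1 exon bases and an antisense gene covers 1.22%.

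MEF2A (chr15:99565417-99716466, plus strand) and MEF2D (chr1:156463727-156500828, minus strand) are DNA-binding partners that class IIa enzymes repress. MEF2A had 34.3, 39.2 and 37.3 CPM in sgHDAC7 and 34.04, 39.6 and 39.1 CPM in sgNT. MEF2D had 49.8, 49.5 and 51.2 CPM in sgHDAC7 and 51.5, 54.3 and 49.7 CPM in sgNT. For both, the groups overlapped. For MEF2D, sgNT replicates 1 and 2 lay above all sgHDAC7 libraries. The log2 fold change was -0.03 ± 0.10 for MEF2A (edgeR adjusted p = 0.915, interval 0.844-fold to 1.14-fold) and -0.05 ± 0.08 for MEF2D (edgeR adjusted p = 0.786, interval 0.860-fold to 1.09-fold). The log2 ratios within replicates 1, 2 and 3 were 0.01, -0.01 and -0.07 for MEF2A, and -0.05, -0.13 and 0.04 for MEF2D. The gene LYSMD4 on the opposite strand shares 11.1% of MEF2A exon bases.

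One of the MEF2A promoters carries a MEF2 consensus itself, and is printed because MEF2 sites are where class IIa enzymes act. The stretch is chr15:99565734-99566033 on the plus strand (RefSeq, GRCh38.p14), from 250 bases before to 50 bases after an annotated start, with the match in capitals.
MEF2A: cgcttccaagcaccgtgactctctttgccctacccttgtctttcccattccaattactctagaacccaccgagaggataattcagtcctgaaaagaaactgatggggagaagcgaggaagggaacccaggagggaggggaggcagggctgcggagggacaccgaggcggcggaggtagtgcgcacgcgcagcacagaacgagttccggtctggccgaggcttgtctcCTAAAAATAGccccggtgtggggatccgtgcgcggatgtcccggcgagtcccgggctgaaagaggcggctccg
The match begins 23 bases before the start. The consensus searched for reads the same on either strand, so any match is found on both. Of 13 promoter windows that RefSeq lists for 6 of the 7 genes, this was the 1 with a match, and 0.572% of 35116 promoters of the same length hold one. The gene not in the list is HDAC5. The match is a run of letters and was not tested as a binding site.

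Ordered per length, HDAC7 led both groups, at 22.8 ± 2.82 RPKM in sgHDAC7 and 46.0 ± 0.65 RPKM in sgNT (SD, n = 3 each). HDAC3 followed at 12.8 ± 0.72 RPKM in sgHDAC7 and 11.9 ± 0.84 RPKM in sgNT. Next in sgHDAC7 came MEF2D (7.84 ± 0.14 RPKM), HDAC5 (7.63 ± 0.95) and NCOR1 (7.58 ± 0.36), whose ranges overlapped, then MEF2A (5.33 ± 0.36) and HDAC4 (1.92 ± 0.17). In sgNT, MEF2D (8.10 ± 0.36 RPKM) and NCOR1 (7.93 ± 1.09) overlapped and were followed by MEF2A (5.43 ± 0.44). HDAC4 (1.81 ± 0.27 RPKM) and HDAC5 (1.75 ± 0.19) overlapped at the bottom. By this length HDAC5 was among the 2 lowest genes in sgNT and overlapped MEF2D and NCOR1 in sgHDAC7. With the longest annotated transcript as the length, HDAC5 (10.9 ± 1.36 RPKM) lay above MEF2D (8.41 ± 0.15) in sgHDAC7 without overlap, NCOR1 moved above MEF2D in both groups, and the ranges of HDAC7 (35.2 RPKM) and HDAC3 (30.3 RPKM) overlapped in sgHDAC7.

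**Figure D3:**
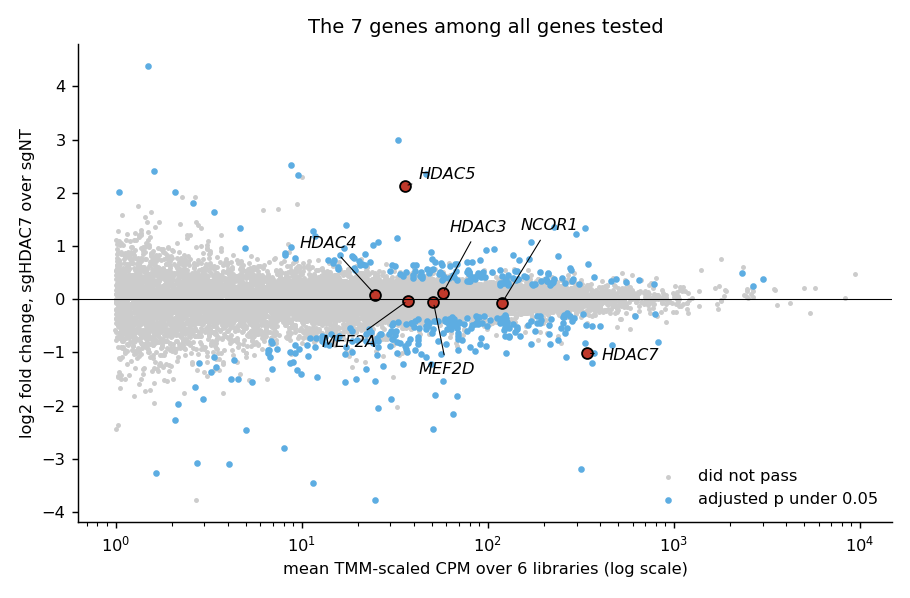
Log2 fold change, sgHDAC7 over sgNT, of each of 13841 genes tested against its mean TMM-scaled CPM over 6 libraries on a log axis; blue points passed the edgeR test, grey points did not, and the 7 genes are ringed red points. HDAC5 (2.13) and HDAC7 (-1.02) stand outside the grey band, and HDAC4, HDAC3, MEF2A, MEF2D and NCOR1 lie between -0.07 and 0.11 inside it.

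The wider pathway was read from 9 lists that hold 71 genes, of which 56 were tested, the 7 already described among them. Outside those 7, 1 of 49 genes tested rose, 1 fell and 47 did not pass (4.08% called, against 2.86% of all genes tested). Their median log2 fold change was 0.0031, and 42 of the 49 lay within 0.25 of 0. Most of all genes tested also lay that near 0. The list gene PPP1R12A, at 0.252, ranked 4063 of 13841 by size of log2 fold change. On replicates 2 and 3 alone, 6 of the 49 were called higher and 4 lower, a share of 20.4%, against 20.7% of all genes tested in that fit.

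In the NCOR corepressor complex, 1 of 8 genes tested fell and 7 did not pass by edgeR (median log2 fold change -0.02). Of all genes tested, 1.7% fell by edgeR. DESeq2 called 2 of the 8 lower, CORO2A and KDM4A. Of all 13841 genes tested, it called 424 lower, and 5.19% in either direction. CORO2A, which encodes a coronin-like protein found in NCOR complexes, had 14.1, 10.3 and 10.9 CPM in sgHDAC7 and 19.1, 20.4 and 19.3 CPM in sgNT. It fell 1.67-fold, a log2 fold change of -0.74 ± 0.15 (SE; edgeR adjusted p = 0.0319), and the groups did not overlap. CORO2A missed the threshold when replicate 2 or 3 of either group was left out (adjusted p = 0.113 to 0.168). KDM4A, a histone demethylase that binds NCOR1, had 102, 112 and 102 CPM in sgHDAC7 and 118, 165 and 162 CPM in sgNT. Its log2 fold change was -0.50 ± 0.12 (edgeR adjusted p = 0.0591). KDM4A passed when a term for replicate 1 was added (edgeR adjusted p = 0.00224; that fit called 12.6% of all genes tested) and without sgNT replicate 1 (adjusted p = 0.000144).

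Other subunits did not pass on all 6 libraries. GPS2, a small subunit of the complex, averaged 36.8 ± 4.16 CPM in sgHDAC7, against 30.01 ± 3.90 in sgNT (SD, n = 3 each; edgeR adjusted p = 0.228). GPS2 passed without sgNT replicate 1 (adjusted p = 0.0485). The WD40 subunits TBL1X and TBL1XR1 had log2 fold changes of -0.14 ± 0.10 and 0.02 ± 0.07. On replicates 2 and 3 alone, TBL1X passed, lower, and GPS2 passed, higher (edgeR adjusted p = 0.0159 and 0.00447). That fit called 1 of the 8 genes of the complex higher and 3 lower, and 20.7% of all genes tested.

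Among the 14-3-3 proteins and the nuclear export receptor XPO1, 1 of 7 genes tested rose and 6 did not pass (median 0.04). Of all genes tested, 1.16% rose. YWHAH encodes 14-3-3 eta. It had 245, 243 and 249.96 CPM in sgHDAC7 and 176, 179 and 176 CPM in sgNT. YWHAH rose 1.39-fold, a log2 fold change of 0.47 ± 0.06 (SE; edgeR adjusted p = 0.00514), and its log2 ratio was 0.48, 0.44 and 0.50 within replicates 1, 2 and 3. It missed the threshold when sgHDAC7 replicate 2 or 3 was left out (adjusted p = 0.0558 and 0.0559). The other 14-3-3 genes measured were YWHAB, YWHAE, YWHAG, YWHAQ and YWHAZ, with log2 fold changes from -0.01 to 0.07. YWHAZ, the most abundant in CPM, averaged 729.9 ± 18.6 CPM in sgHDAC7, against 718 ± 15.5 in sgNT (SD, n = 3 each). XPO1 had a log2 fold change of 0.11 ± 0.07 (SE; edgeR adjusted p = 0.415). It passed, higher, on replicates 2 and 3 alone (edgeR adjusted p = 0.0432).

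In the other lists of the pathway no gene passed in the comparison of all 6 libraries by group alone, by edgeR, DESeq2 or limma. An unadjusted p under 0.05 by edgeR, quoted for these lists, was held by 19.2% of all genes tested. Of the 7 other zinc-dependent deacetylases tested, 1 was higher and 1 lower at an unadjusted p under 0.05. HDAC10 averaged 93.0 ± 5.01 CPM in sgHDAC7, against 81.3 ± 2.24 in sgNT (edgeR adjusted p = 0.171), and HDAC6, the tubulin deacetylase, averaged 110.4 ± 1.19 CPM in sgHDAC7, against 129 ± 17.1 in sgNT (edgeR adjusted p = 0.215; SD, n = 3 each). HDAC6 stood at a log2 ratio of 0.0046 within replicate 1 and at -0.26 and -0.40 within replicates 2 and 3. HDAC6 passed, lower, without sgNT replicate 1 (edgeR adjusted p = 0.00993) and on replicates 2 and 3 alone (edgeR adjusted p = 0.000256). HDAC10 and HDAC1 passed, both higher, on replicates 2 and 3 alone (edgeR adjusted p = 0.0292 and 0.0177).

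MEF2C, the third MEF2 factor measured, had 99.3, 95.1 and 96.6 CPM in sgHDAC7 and 116, 101 and 105 CPM in sgNT. Its groups did not overlap, and its log2 fold change of -0.15 ± 0.07 did not pass (edgeR adjusted p = 0.311, interval 0.808-fold to 1.01-fold). None of the 3 MEF2 genes had an unadjusted p under 0.05. MEF2B is not analysed here.

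None of the 11 kinases tested, of the CaMK, protein kinase D, SIK, MARK and AMPK families, had an unadjusted p under 0.05 (median log2 fold change -0.02). PRKAA1, a catalytic subunit of AMPK, averaged 73.1 ± 1.59 CPM in sgHDAC7, against 80.3 ± 1.75 in sgNT (edgeR adjusted p = 0.305), and CAMK1 averaged 3.85 ± 0.90 CPM in sgHDAC7, against 2.57 ± 0.69 in sgNT (edgeR adjusted p = 0.323; SD, n = 3 each). Among 6 phosphatase genes, 1 was higher at an unadjusted p under 0.05. This was PPP1R12A, the targeting subunit of the myosin phosphatase, which dephosphorylates HDAC7, averaging 172 ± 15.0 CPM in sgHDAC7, against 145 ± 15.3 in sgNT (SD, n = 3 each; edgeR adjusted p = 0.181). PPP1R12A passed with the replicate 1 term (edgeR adjusted p = 0.0128), a fit that called 12.6% of all genes tested. PPP2R1A, a scaffold subunit of protein phosphatase 2A, had a log2 fold change of 0.10 ± 0.06.

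None of the 8 other class IIa partners had an unadjusted p under 0.05. RUNX1, a blood transcription factor, and CBX5, the heterochromatin protein HP1 alpha, had log2 fold changes of 0.11 ± 0.06 and -0.12 ± 0.07 (edgeR adjusted p = 0.362 and 0.379). The same held for the 4 MEF2 target genes tested, out of 10 listed, a list drawn mostly from muscle, thymocytes and endothelium. NR4A1, the nuclear receptor that HDAC7 represses with MEF2D in mouse thymocytes, had 10.1, 3.79 and 3.72 CPM in sgHDAC7 and 4.34, 3.86 and 3.98 CPM in sgNT. One library, sgHDAC7 replicate 1, was high and the others lay close together (log2 fold change 0.53 ± 0.38, edgeR adjusted p = 0.487). JUN had a log2 fold change of 0.17 ± 0.17 (SE; edgeR adjusted p = 0.638).

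**Figure D4:**
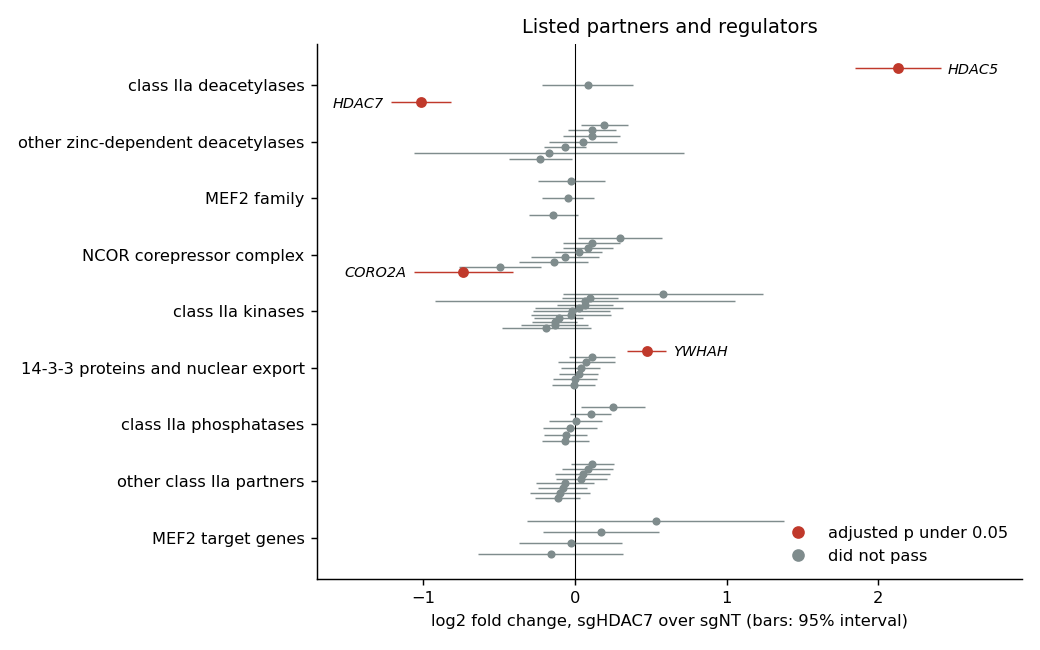
Log2 fold change, sgHDAC7 over sgNT, of each gene tested in the 9 pathway lists, with bars for its 95% interval; red points passed the edgeR test and grey points did not. HDAC5, HDAC7, CORO2A and YWHAH are the red points, and 47 of 56 genes lie within 0.25 of 0, as do most of all genes tested.

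Genes near the HDAC7 and HDAC5 loci were then read, over 250 kb to either side. Of 7 genes tested near HDAC7, 1 fell and 6 did not pass (median log2 fold change -0.04), and 1.7% of all genes tested fell. COL2A1, a collagen gene 139.8 kb away, had 131, 117 and 106 CPM in sgHDAC7 and 177, 163 and 169.9 CPM in sgNT, with a log2 fold change of -0.52 ± 0.08 (SE; edgeR adjusted p = 0.0196). COL2A1 missed the threshold when replicate 2 or 3 of either group was left out (adjusted p = 0.0719 to 0.118). The nearest genes tested on either side, SLC48A1 and VDR, did not pass. SLC48A1 encodes a haem transporter, and its last 32 exon bases overlap HDAC7 on the opposite strand. It had 107, 109.9 and 106 CPM in sgHDAC7 and 66.7, 97.5 and 98.4 CPM in sgNT, without overlap (log2 fold change 0.30 ± 0.13, edgeR adjusted p = 0.245). SLC48A1 passed, higher, with the replicate 1 term, a fit that called 12.6% of all genes tested. VDR, the vitamin D receptor gene 8.4 kb away, averaged 4.02 ± 1.68 CPM in sgHDAC7, against 2.64 ± 0.40 in sgNT (SD, n = 3 each; edgeR adjusted p = 0.384).

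Near HDAC5, 1 of 14 genes tested rose and 13 did not pass (median log2 fold change 0.10, highest 0.39), and 1.16% of all genes tested rose. UBTF, a factor of ribosomal RNA gene transcription 81.3 kb away, had 227, 251 and 252 CPM in sgHDAC7 and 189.5, 202 and 200.5 CPM in sgNT. It rose 1.23-fold (edgeR adjusted p = 0.0455), and missed the threshold when replicate 2 or 3 of either group was left out (adjusted p = 0.142 to 0.206). G6PC3, a glucose-6-phosphatase gene 0.4 kb from HDAC5, averaged 48.9 ± 3.63 CPM in sgHDAC7, against 39.4 ± 2.18 in sgNT, without overlap (SD, n = 3 each; log2 fold change 0.31 ± 0.09, edgeR adjusted p = 0.0936). LSM12 on the same side, 9.1 kb away, had a log2 fold change of 0.15 ± 0.09. The erythroid gene SLC4A1, which encodes the band 3 anion exchanger and lies 124.7 kb away, was low in replicate 1 of both groups, at 30.9, 104 and 99.6 CPM in sgHDAC7 and 15.4, 88.2 and 81.7 CPM in sgNT (edgeR adjusted p = 0.798). SLC4A1 and G6PC3 also passed, both higher, with the replicate 1 term. That fit called 3 of the 14 genes higher, UBTF among them, and 800 of all 13841 genes tested higher.

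**Figure D5:**
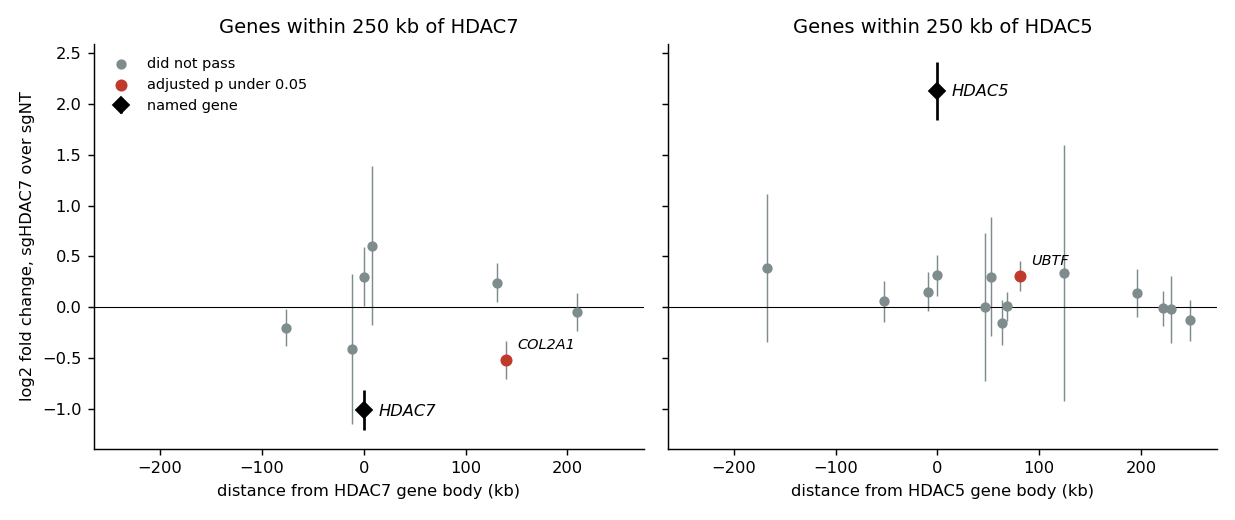
Log2 fold change, sgHDAC7 over sgNT, of genes tested within 250 kb of HDAC7 (left) and HDAC5 (right), against distance from the gene body in kb; diamonds are HDAC7 and HDAC5 themselves, red points passed the edgeR test, grey points did not, and bars are 95% intervals. HDAC7 at -1.02 lies below its neighbours and HDAC5 at 2.13 above its own, which reach 0.39.

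The genes whose level across the 6 libraries ran most like HDAC7 or HDAC5 were sought among 789 genes with a mean of at least 10 CPM and an SD of at least 0.3 on the log2 scale. For HDAC7 they were HOXB9, RIPOR3, FAM229A and HMBOX1, with Pearson r of 0.988, 0.982, 0.977 and 0.967 over 6 libraries. HOXB9, a homeobox gene, averaged 27.8 ± 5.31 CPM in sgHDAC7, against 53.7 ± 3.30 in sgNT, a log2 fold change of -0.95 ± 0.14 (SD, n = 3 each; edgeR adjusted p = 0.0114). HMBOX1, which encodes a telomere-binding homeobox protein, averaged 106 ± 7.49 CPM in sgHDAC7, against 154 ± 6.80 in sgNT. For HDAC5 they were ARL15, HGH1, MAPRE2 and OSBPL3, with r of 0.990, 0.988, 0.988 and 0.984. These 4 rose 1.62-fold to 1.72-fold, less than HDAC5. MAPRE2, a microtubule end-binding protein, averaged 114 ± 6.00 CPM in sgHDAC7, against 68.2 ± 2.14 in sgNT (SD, n = 3 each; edgeR adjusted p = 0.00204). The 6 points fall into the 2 groups of libraries, so genes picked by r differ between the groups by selection. Their r, fold changes and p-values are given as a description and are no separate evidence of a difference.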

How the data were processed

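Messenger RNA of 6 F36P libraries, 3 sgHDAC7 and 3 sgNT, was captured on poly-T beads and copied with random hexamers, per the labels' protocols. The authors deposited whole-number read counts per gene (100% of values whole, under a file name that says CPM). Build hg38 and edgeR 3.32.1 are named without a role in the submitters' processing notes; for aligner, counter and annotation the sources used here give no name. Columns named NC were taken as sgNT, the only other group.

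edgeR 4.0.16 (R 4.3.3) ran glmQLFit and glmQLFTest on the 13841 genes averaging 1 CPM or more, scaled by TMM, with no term but group. SE is the log2 fold change over the root of F, and intervals are 95%, unadjusted. Every adjusted p with a library left out is from edgeR. At this depth 3 counts equal 0.241 to 0.296 CPM, which covers counting error only. Lengths and positions come from GENCODE 29 (GRCh38), promoters from RefSeq (GRCh38.p14). Scripts were tested on simulated data. Alternatives were DESeq2 1.42.0, limma 3.58.1 on log2(CPM + 0.5), other scalings, no filter, a replicate block, a replicate 1 term, replicates 2 and 3 alone, omission of each library and transcript length.

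The 7 genes and the pathway lists were chosen with earlier results of these data known. Named are the 7 genes, list genes that passed plus the next 2 by p in each list, the 4 genes most like HDAC7 and HDAC5, and neighbours within 250 kb. A few further list members and neighbours are given for context and were chosen after their values were seen. One listed gene is counted but not reported by name here.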

Additional observations from a re-analysis of the deposited data

How the results depend on the processing

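HDAC7 fell and HDAC5 rose past the threshold in all 14 alternatives, with log2 fold changes of -1.08 to -0.92 and 2.01 to 2.18. HDAC4, HDAC3, MEF2A, MEF2D and NCOR1 did not pass in any of the 14. Signs turned when single libraries were left out: HDAC4 ran from -0.033 (without sgNT replicate 1) to 0.16, MEF2A from -0.092 to 0.017 (0.017 without sgHDAC7 replicate 1, 0.013 without sgNT replicate 2 and 0.0032 without sgNT replicate 3), and NCOR1 from -0.17 to 0.016 (without sgNT replicate 2). The summed class IIa level was 17.2 RPKM lower in sgHDAC7 (-17.2; -18.05 to -16.3 with 1 library left out), and the difference was -27.4 with the longest transcript as length, a shorter length by construction. The HDAC5 share was higher by 20.3 percentage points, and by 17.6 to 21.6 with 1 library left out.

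The number of genes called in all, 396, was 718 by DESeq2, 1743 with the replicate 1 term and 2861 on replicates 2 and 3 alone; the cause was not tested. It ran from 28 to 1595 when single libraries were left out: 233, 28 and 31 without sgHDAC7 replicates 1, 2 and 3, and 1595, 46 and 50 without sgNT replicates 1, 2 and 3. With the replicate number as a block it was 998, and the block changed no call among the 7 genes; KDM4A (adjusted p = 0.0139), PPP1R12A (0.038) and G6PC3 (0.0456) passed with it. Deviations of same-numbered libraries correlated at 0.303, 0.107 and 0.0968 for replicates 1, 2 and 3. Replicate 1 of either group correlated negatively with replicates 2 and 3 of the other group (-0.216 to -0.179). Replicate 1 thus deviated in part the same way in both groups, and the main fit has no term for that. Replicates 2 and 3 correlated better with each other's number (0.155 and 0.159), so the numbers were not taken as pairs. On library totals alone, 134 genes were higher and 268 lower, against 161 and 235.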
